A study of Mus musculus with 10 samples.

Results

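The enzymes that make and clear the deoxynucleotides used for DNA synthesis were followed through mitogen withdrawal in cultures of neural stem and progenitor cells from the subependymal zone (SEZ) of adult mice, a neurogenic niche along the lateral ventricles. The set is defined by gene names, without a threshold on any measured value, but it was drawn up with earlier results of these data known. It holds 9 genes, namely Rrm1, Rrm2, Rrm2b, Tyms, Tk1, Dut, Dck, Dtymk and Samhd1, out of 48795 genes in the count table, and all 9 passed the filter on low counts. RNA-seq was carried out on 10 libraries in 4 groups. Neurospheres, the free-floating balls that proliferating progenitors form, were grown with 20 ng/ml EGF and 10 ng/ml FGF, and are called PRO. Their time in culture is 3 DIV (days in vitro) in the sequencing methods, whereas 5 days are named elsewhere for the neurospheres of this comparison. Attached cells at the onset of differentiation are called DIFF or 2 + 1 DIV. They were kept for 2 days on Matrigel with FGF and then for 24 h in medium without mitogens that held 2% serum. Besides mitogens, the stages differ in attachment, Matrigel, serum and time in culture, which cannot be told apart in a stage change. The cultures came from 10-week-old mice, either wild-type (WT, 3 libraries at each stage) or labelled p27KO (2 libraries at each stage), which are Cdkn1b mutants kept on a C57BL/6J background. Cdkn1b encodes p27, an inhibitor of cyclin-dependent kinases, and the mutant carries its allele in every cell and at both stages. The methods speak of biological replicates, but how many animals or separate cultures stand behind them is not given in the sources used here, so that the p-values measure the spread between these libraries.

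Cells build DNA from deoxynucleotides, which ribonucleotide reductase makes from ribonucleotides. It pairs the large subunit RRM1, which holds the catalytic and the regulatory sites, with a small subunit that carries the radical needed for the reaction. RRM2 is the small subunit of dividing cells and is made and destroyed within each cell cycle, whereas RRM2B, a product of the p53 response, is known to serve repair and mitochondrial DNA in cells that do not divide. Thymidylate has a route of its own, in which DUT turns dUTP into dUMP, TYMS methylates dUMP to dTMP, TK1 recovers thymidine and DTYMK phosphorylates dTMP further. DCK recovers deoxycytidine and the purine deoxynucleosides. SAMHD1 works in the opposite direction and breaks deoxynucleoside triphosphates down. Dividing cells use this supply in S phase, and neural progenitors of the SEZ leave the cell cycle as they differentiate.

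The libraries held 19190068 to 25291674 counts, and 12859 genes were tested. Transcripts of Cdkn1b, the targeted gene, were present in every library, at 102.7 to 209 CPM (counts scaled to the library total) in WT and at 90.7 to 140.2 CPM in the libraries labelled p27KO. The counts cover the whole gene, and which part of it is deleted is not given in the sources used here, so that they neither bear out the genotype nor go against it. A free-text field of the p27KO libraries describes them as WT, whereas their genotype field and titles do not, and the latter were followed. Xist was at 1.16 to 2.57 CPM in WT and at 2258 to 3595 CPM in the libraries labelled p27KO, so that sex and genotype cannot be told apart. All 8 progenitor markers were present in every group, and summed to 5542 to 7710 CPM, but they did not move alike. Sox9 was at 277 ± 38 CPM in WT neurospheres and 260 ± 5.7 CPM in WT cells at 2 + 1 DIV, whereas Nes went from 1732 ± 254 to 194.9 ± 41 CPM (SD, n = 3). Notch1 went the other way, from 290 ± 26 to 654 ± 37 CPM (SD, n = 3). The WT means of Pax6, Prom1, Fabp7 and, slightly, Egfr were higher at 2 + 1 DIV too, and that of Vim was lower. All 7 microglial markers stayed under 1 CPM in each group mean, with a sum of at most 0.663 CPM in any library. The summed astrocyte markers were at 1291 to 1540 CPM in neurospheres and at 4017 to 4709 CPM at 2 + 1 DIV. The summed ependymal markers were at 14.7 to 20.2 CPM and then at 86.1 to 104 CPM, mostly from Foxj1. Dcx, a marker of neuroblasts, was at 1.43 ± 1.5 CPM in WT neurospheres and 35.2 ± 21 CPM in WT cells at 2 + 1 DIV (SD, n = 3). It is 1 of 6 neuron markers, which summed to 1230 to 1502 CPM in WT neurospheres and then to 1481 to 1722 CPM, mostly from Map2. The WT means of Tubb3, Rbfox3, Snap25 and Map2 were higher at 2 + 1 DIV too, whereas Syt1 went from 10.8 ± 12 to 8.77 ± 3.6 CPM. The part of these shifts in the stage changes was not tested. In bulk RNA, fewer cells that express a gene and less of its RNA per cell cannot be told apart, and this holds for every change given here.

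The 9 genes lie on 7 chromosomes in GRCm38. Rrm2 (ENSMUSG00000020649) is at chr12:24708241-24714146 on the plus strand, Rrm1 (ENSMUSG00000030978) at chr7:102441695-102469771 on the plus strand and Rrm2b (ENSMUSG00000022292) at chr15:37923952-37961318 on the minus strand. The promoters of members that fell together were searched in RefSeq (GRCm38.p6) for letters tied to cell cycle transcription, over the 250 bases before and 50 bases after each start, on both strands. RefSeq windows were matched for 8 of the 9 genes, and Rrm2b had no entry. CCAAT, the letters bound by the factor NF-Y, occurred in 3 of 8 (Rrm1, Rrm2 and Dtymk), against 37.4% of 32851 promoters of the same length. The E2F forms TTTCCCGC, TTTGGCGC, TTTCGCGC and TTTGCCGC occurred in 0 of 8, against 2.26% of all promoters. The CHR forms TTTGAA and TTCGAA occurred in 1 of 8 (Dck), against 19.2%. The 3 stretches with CCAAT are shown because they include both main subunits of ribonucleotide reductase. They lie before the gene start, at chr7:102441550-102441669 (plus strand), chr12:24708104-24708223 (plus strand) and chr1:93802027-93802146 (minus strand), and are written 5′ to 3′ along the gene, with CCAAT or its reverse complement ATTGG in capitals.
Rrm1: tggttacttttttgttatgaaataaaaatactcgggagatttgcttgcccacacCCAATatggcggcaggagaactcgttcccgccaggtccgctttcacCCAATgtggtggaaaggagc
Rrm2: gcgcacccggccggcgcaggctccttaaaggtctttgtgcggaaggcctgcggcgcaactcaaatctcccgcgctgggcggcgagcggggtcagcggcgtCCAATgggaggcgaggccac
Dtymk: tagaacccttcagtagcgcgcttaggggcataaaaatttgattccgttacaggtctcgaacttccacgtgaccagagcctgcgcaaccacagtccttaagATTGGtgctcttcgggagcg
Rrm1 held CCAAT in 2 places, the nearer of which began at base -45 before the RefSeq start, and the match of Rrm2 began at base -50. These are matches of letters and not measured binding sites.

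The transcripts of the ribonucleotide reductase subunits shifted against each other between the stages. Protein was not measured, so that the make-up of the enzyme is not shown. Rrm2 fell the most of the 9 genes from neurospheres to 2 + 1 DIV. WT neurospheres held 207, 223 and 225 CPM of Rrm2, and WT cells at 2 + 1 DIV held 9.01, 6.47 and 8.86 CPM. In the libraries labelled p27KO, neurospheres held 279 and 254 CPM and cells at 2 + 1 DIV held 24.9 and 25.2 CPM. Every library at 2 + 1 DIV was thus far below every neurosphere library, and the p27KO libraries were above the WT libraries at both stages, with no overlap. The WT log2 fold change was -4.77 ± 0.12 (fitted value ± SE, 3 against 3 libraries), which left 3.71% of the neurosphere level (adjusted p = 1.9e-08, edgeR quasi-likelihood F-test, Benjamini-Hochberg adjustment). Counted from the largest decrease, this was rank 15 of the 12859 genes tested. In the libraries labelled p27KO the log2 fold change was -3.43 ± 0.13 and 9.43% of the neurosphere level was left.

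Rrm1, which encodes the large subunit, fell less than its partner. It was at 389.8, 424 and 424 CPM in WT neurospheres and at 92.5, 79.6 and 93.4 CPM in WT cells at 2 + 1 DIV. The p27KO libraries held 453 and 385 CPM in neurospheres and 134 and 130.0 CPM at 2 + 1 DIV. The genotypes overlapped in neurospheres and were apart at 2 + 1 DIV, with p27KO higher. The log2 fold change was -2.23 ± 0.09 in WT and -1.69 ± 0.10 in p27KO. Of the neurosphere level, 21.5% was left in WT and 31.5% in p27KO. An annotated gene without a name of its own, Gm45399, overlaps Rrm1 and had at most 0.541 CPM in any library.

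Rrm2b, the small subunit of cells out of cycle, was the only member that rose. Its level was 21.5, 20.3 and 22.6 CPM in WT neurospheres and 45.4, 40.7 and 38.7 CPM in WT cells at 2 + 1 DIV. In the libraries labelled p27KO it was 22.5 and 17.2 CPM in neurospheres and 35.1 and 37.3 CPM at 2 + 1 DIV. All 5 libraries at 2 + 1 DIV were above all 5 neurosphere libraries. The log2 fold change was 0.94 ± 0.11 in WT (adjusted p = 4.3e-05, edgeR quasi-likelihood F-test, Benjamini-Hochberg adjustment) and 0.84 ± 0.14 in p27KO, so that the level at 2 + 1 DIV was 194% and 182% of that in neurospheres. Rrm2b shares positions with Gm3362, which was at 0 to 2.17 CPM, and with an antisense gene that the table does not list. Whether the counting used the strand is not given in the sources used here, and reads of that gene could not be told apart from those of Rrm2b.

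**Figure D1:**
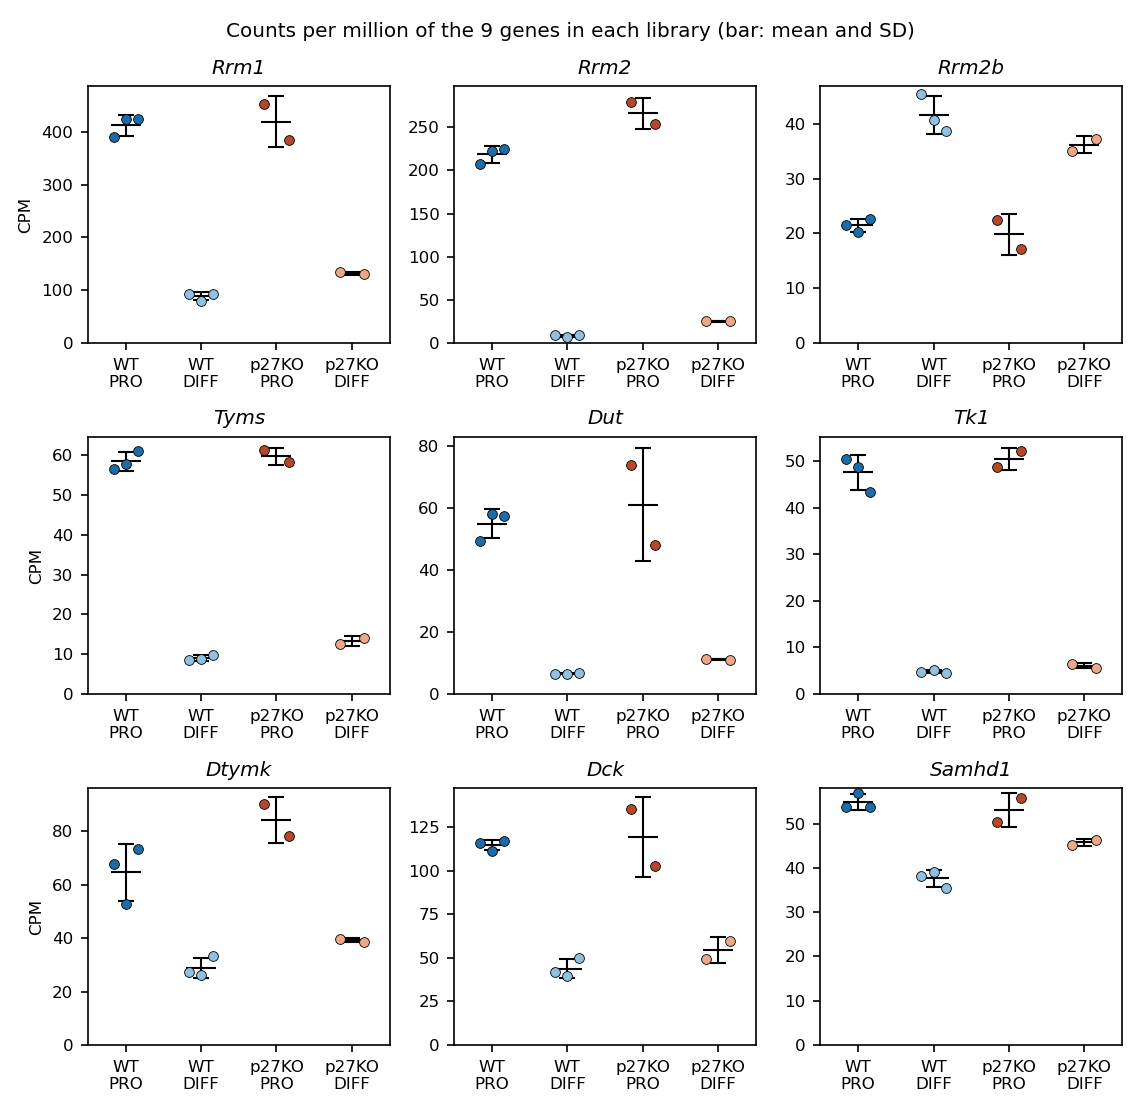
CPM (counts scaled to the library total, vertical axes from 0) of the 9 genes in each library, by group on the horizontal axis. Points are libraries and bars the mean and SD (n = 3 for WT, n = 2 for p27KO). Rrm2b is the panel in which both DIFF groups sit above both PRO groups, and Samhd1 the panel with the smallest drop.

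Set side by side per length, these opposite changes turned the ratio of the small-subunit transcripts around in WT. The Rrm2 to Rrm2b ratio, with each gene's counts divided by its merged exon length, was 31.7, 36.3 and 32.8 in WT neurospheres and 0.653, 0.523 and 0.753 in WT cells at 2 + 1 DIV. In the libraries labelled p27KO it was 40.8 and 48.5 in neurospheres and 2.34 and 2.23 at 2 + 1 DIV. Rrm2b transcripts therefore outnumbered those of Rrm2 in all 3 WT libraries at 2 + 1 DIV and in neither of the p27KO libraries at that stage. Expressed as a share of small-subunit transcripts per length, Rrm2b made up 2.68% to 3.05% in WT neurospheres, 57.0% to 65.7% in WT cells at 2 + 1 DIV, 2.02% to 2.39% in p27KO neurospheres and 29.9% to 31.0% in p27KO cells at 2 + 1 DIV. With the length of the principal transcript instead, which was tried after the lengths had been seen, the mean ratio was 21.2 in WT neurospheres, 0.406 in WT cells at 2 + 1 DIV, 28.2 in p27KO neurospheres and 1.44 in p27KO cells at 2 + 1 DIV, so that the side of 1 was kept in each group. The Rrm2 to Rrm1 ratio fell too, from 2.11 ± 0.01 to 0.362 ± 0.035 in WT (SD, n = 3, merged exons) and from 2.53 ± 0.12 to 0.755 ± 0.023 in p27KO (SD, n = 2). With principal transcript lengths its mean went from 0.965 to 0.166 in WT and from 1.16 to 0.346 in p27KO. It thus fell with either length, but its side of 1 in WT neurospheres depended on the length used. These ratios are descriptions and were not tested.

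**Figure D2:**
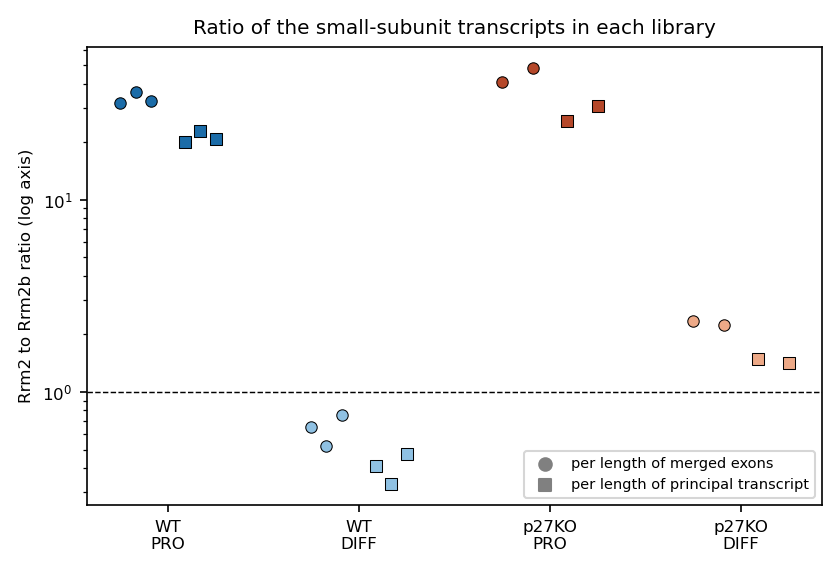
Ratio of Rrm2 to Rrm2b transcripts in each library (log axis), by group, per length of merged exons (circles) or of the principal transcript (squares). The dashed line marks a ratio of 1, and the WT DIFF libraries are the ones below it with either length.

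The genes of the thymidylate route fell together. Tyms, the enzyme that makes dTMP and a target of fluorouracil drugs, was at 56.6, 57.8 and 61.2 CPM in WT neurospheres and at 8.60, 8.79 and 9.88 CPM in WT cells at 2 + 1 DIV. The p27KO libraries held 61.3 and 58.3 CPM, then 12.5 and 14.2 CPM. The genotypes overlapped in neurospheres but not at 2 + 1 DIV, where both p27KO libraries were higher. The log2 fold change of Tyms was -2.70 ± 0.09 in WT and -2.19 ± 0.11 in p27KO. A stretch of at least 200 bases that matches Tyms at 90% identity or more is found in 155 other genes in the table, the longest of 371 bases, and a longer match of 935 bases lies in its pseudogene Tyms-ps, which the table does not list. Read sharing by RSEM could touch the value of Tyms, and its part was not tested.

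Dut, which keeps uracil out of DNA and supplies dUMP to TYMS, was at 49.4, 58.0 and 57.3 CPM in WT neurospheres and at 6.36, 6.55 and 6.88 CPM in WT cells at 2 + 1 DIV. The p27KO neurospheres were far apart from each other, at 73.8 and 48.1 CPM, and enclosed the WT values. At 2 + 1 DIV they were close, at 11.3 and 10.9 CPM, and above WT. The decrease of Dut was -3.07 ± 0.15 (log2) in WT and -2.47 ± 0.18 in p27KO.

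Tk1, the cytosolic thymidine kinase whose activity is used as a measure of proliferation, had the steepest fall of this route. It was at 50.5, 48.8 and 43.4 CPM in WT neurospheres and at 4.78, 5.18 and 4.43 CPM in WT cells at 2 + 1 DIV. The p27KO libraries held 48.7 and 52.1 CPM, then 6.46 and 5.67 CPM. By group means its level was 9.92-fold lower at 2 + 1 DIV in WT and 8.31-fold lower in p27KO, and the log2 fold changes were -3.32 ± 0.12 and -3.08 ± 0.14. Tk1 overlaps Gm20708 and Afmid on the opposite strand, which were at 0.785 to 2.88 CPM over all libraries, beside 4.43 to 6.46 CPM of Tk1 at 2 + 1 DIV. Their part in its value was not tested.

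Dtymk, the kinase on which both the new and the salvaged thymidylate depend, fell the least of the route. WT neurospheres were spread over 67.8, 52.7 and 73.2 CPM and WT cells at 2 + 1 DIV over 27.5, 26.2 and 33.2 CPM. The p27KO libraries were at 90.3 and 78.1 CPM, then at 39.8 and 38.7 CPM. They were above all WT libraries at both stages. The log2 fold change was -1.17 ± 0.13 in WT and -1.12 ± 0.16 in p27KO, and 44.8% and 46.6% of the neurosphere level was left.

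Dck, the salvage kinase that also activates drugs such as cytarabine, kept more of its level than Rrm1 or Tyms. It was at 116, 111 and 117 CPM in WT neurospheres and at 42.1, 39.5 and 49.8 CPM in WT cells at 2 + 1 DIV. The p27KO libraries held 135 and 103 CPM, then 49.3 and 59.8 CPM. The genotypes overlapped at both stages. The log2 fold change was -1.40 ± 0.12 in WT and -1.15 ± 0.14 in p27KO.

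Samhd1, which breaks down the products of the other enzymes, changed the least. Its level was 53.9, 57.0 and 53.8 CPM in WT neurospheres and 38.3, 39.1 and 35.5 CPM in WT cells at 2 + 1 DIV. The p27KO libraries were at 50.4 and 55.9 CPM, then at 45.2 and 46.3 CPM. The WT log2 fold change was -0.55 ± 0.08 (adjusted p = 0.0002 by edgeR quasi-likelihood F-test, Benjamini-Hochberg adjustment), and 68.6% of its neurosphere level was left. In p27KO the log2 value was -0.24 ± 0.10 and did not pass the threshold (adjusted p = 0.06 by the same edgeR test with Benjamini-Hochberg adjustment). This call was gained with a filter that kept more genes (adjusted p = 0.033 by edgeR with Benjamini-Hochberg adjustment) and without p27KO neurosphere library 1 (adjusted p = 0.027 by edgeR with Benjamini-Hochberg adjustment). SAMHD1 is abundant in myeloid cells, and the microglial markers summed to 0.0396 to 0.663 CPM over the 10 libraries, against at least 35.5 CPM of Samhd1. A stretch of at least 200 bases shared at 90% identity or more links Samhd1 with 106 other genes in the table, the longest of 237 bases.

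As a group, 8 of the 9 genes fell and 1 rose in WT, where 33.9% of all tested genes fell and 33.5% rose. The median log2 fold change of the 9 was -2.23, against -0.0019 over all genes. In the libraries labelled p27KO, 7 fell and 1 rose, with 30.2% of all genes falling and 27.5% rising, and the median of the 9 was -1.69. In the plot of stage changes the order ran from Rrm2 through Tk1, Dut, Tyms, Rrm1, Dck and Dtymk to Samhd1 in both genotypes, although the intervals of neighbours such as Dck and Dtymk overlapped. Proliferation references fell as well. Mki67, a gene of cycling cells, kept 11.6% of its neurosphere level in WT and 36.5% in p27KO, and Pcna, the clamp of the replication fork, kept 13.7% and 18.9%. Of the 9 members, Rrm2, Tk1 and Dut kept a smaller share than Pcna in both genotypes.

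**Figure D3:**
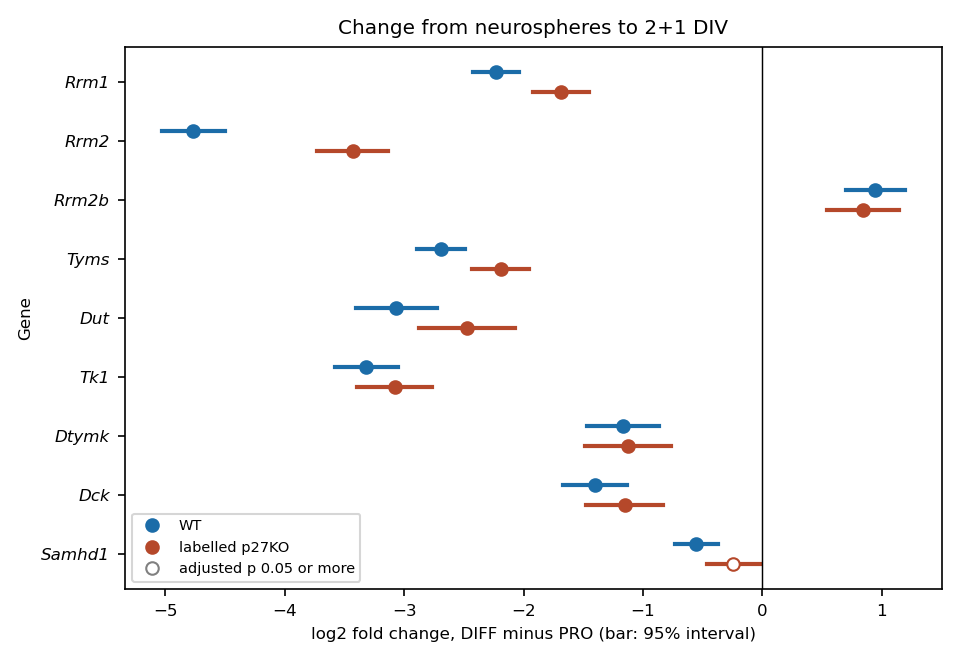
Log2 fold change from neurospheres to 2 + 1 DIV (horizontal axis, bars 95% intervals) of the 9 genes in WT (blue) and in the libraries labelled p27KO (red). Filled points passed an adjusted p of 0.05; Samhd1 in p27KO, at -0.24, is the open point, and Rrm2b is the gene to the right of 0.

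Levels were ranked between genes per length only. With merged exons, Rrm2 was the most abundant of the 9 in WT neurospheres at 246 ± 16 TPM (counts per length on a common total, SD, n = 3), followed by Rrm1 at 117 ± 8.2 TPM and Dck at 94.6 ± 2.3 TPM. Rrm2b was the lowest at 7.33 ± 0.41 TPM. Dtymk and Dut, and Tyms and Tk1, were neighbours whose libraries overlapped. At 2 + 1 DIV in WT, Dck led with 37.5 ± 4.6 TPM and overlapped Dtymk at 35.6 ± 4.7 TPM, Rrm2b had moved up to place 4, where it overlapped Samhd1, and Tk1 was last at 2.98 ± 0.22 TPM. With principal transcript lengths, Rrm1 and Rrm2 overlapped at the top in WT neurospheres, and Dtymk led at 2 + 1 DIV. Rrm2b was last in WT and p27KO neurospheres with either length.

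The question of whether p27 bears on this change was addressed by the difference between the stage changes of the genotypes. Rrm2 was the 1 member for which this difference passed the threshold, at 1.33 ± 0.16 (95% interval 0.97 to 1.70, adjusted p = 0.023, edgeR quasi-likelihood F-test, Benjamini-Hochberg adjustment). Rrm2 thus fell less steeply in the libraries labelled p27KO. Over all genes 0.389% passed in that direction, and all 50 of these genes fell in WT. The call was lost when WT neurosphere library 2 or 3, or any of the 4 p27KO libraries, was left out (adjusted p = 0.063 to 0.16 in edgeR with Benjamini-Hochberg adjustment), while the value stayed between 1.21 and 1.41 under all alternatives. Rrm1 differed by 0.54 ± 0.13, Tyms by 0.50 ± 0.13 and Dut by 0.59 ± 0.22, with adjusted p = 0.22, 0.31 and 0.92 by edgeR with Benjamini-Hochberg adjustment. For Tk1 the 95% interval of the difference was -0.15 to 0.63 and for Dtymk -0.42 to 0.51, so that neither a similar fall nor a moderate difference is shown. For Rrm2b it was -0.49 to 0.29. Xist separates the genotypes as completely as the labels do, and sex and genotype cannot be told apart here either.

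At 2 + 1 DIV itself, 4 of the 9 genes were higher in the libraries labelled p27KO than in WT, where 1.91% of all tested genes were. Rrm2 was 3.09-fold higher by group means, with a log2 difference of 1.65 ± 0.12 (adjusted p = 0.00033, edgeR quasi-likelihood F-test, Benjamini-Hochberg adjustment). Rrm1 was higher by 0.59 ± 0.09 (adjusted p = 0.0087 in edgeR with Benjamini-Hochberg adjustment), Tyms by 0.56 ± 0.10 (adjusted p = 0.015) and Dut by 0.77 ± 0.16 (adjusted p = 0.048). The differences of the other 4 enzymes of synthesis and breakdown were 0.35 ± 0.13 for Tk1, 0.33 ± 0.13 for Dck, 0.45 ± 0.15 for Dtymk and 0.29 ± 0.09 for Samhd1, and did not pass. Rrm2b was at -0.19 ± 0.12, with an interval of -0.46 to 0.09. Counted by libraries, 7 members were higher without overlap, against 17.0% of all tested genes, 1 (Rrm2b) was lower without overlap, against 20.4%, and Dck overlapped.

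Of these calls, that of Rrm2 was kept under each alternative tried. The call of Rrm1 was lost in a fit of the compared groups alone and without either p27KO library, and that of Tyms in the same cases and without WT library 2 (adjusted p = 0.051 to 0.19 in edgeR with Benjamini-Hochberg adjustment). The call of Dut was lost in 8 of 11 alternatives, among them each library left out in turn and the replicate block (adjusted p = 0.066 in edgeR with Benjamini-Hochberg adjustment). With the replicate block, which fits the shared replicate number as a term, the difference of Dtymk passed at 0.55 (adjusted p = 0.034 in edgeR with Benjamini-Hochberg adjustment). Between genotypes this term joins WT and p27KO libraries of the same number, which no label pairs. The calls it moved are therefore no check of a pairing. Mki67 was higher in p27KO at this stage by 1.81 ± 0.19. Its part in the differences of the members was not tested.

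In neurospheres, 0 of the 9 genes passed the threshold between genotypes in edgeR, where 0.0156% of all tested genes were higher and 0.00% lower. In DESeq2 0 members passed too, and 2 (Rrm2 and Dtymk) had an unadjusted p under 0.05 in edgeR, against 603 of the 12859 genes tested. The log2 difference of Rrm2 was 0.31 ± 0.11 and that of Dtymk 0.41 ± 0.14, and for both genes the 2 p27KO libraries lay above the 3 WT libraries. For the other 7 genes the libraries overlapped, with values from -0.08 to 0.18. The share of all genes without overlap was not counted in neurospheres, so that this describes the libraries only. The interval for Tyms, of -0.15 to 0.26, and that for Rrm1, of -0.16 to 0.26, leave room for modest differences only, whereas that for Dut was -0.16 to 0.51.

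**Figure D4:**
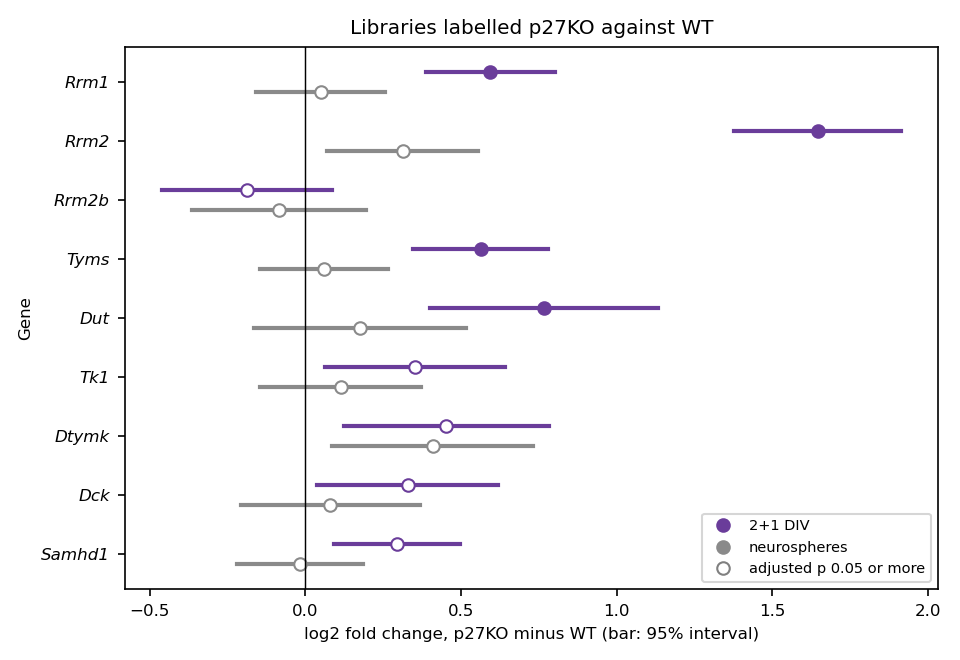
Log2 difference of the libraries labelled p27KO against WT (horizontal axis, bars 95% intervals) for the 9 genes at 2 + 1 DIV (purple) and in neurospheres (grey). The filled points, which passed an adjusted p of 0.05, are Rrm1, Rrm2, Tyms and Dut at 2 + 1 DIV.

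Rrm2, Rrm2b and Samhd1 were matched against the 9740 genes averaging 10 CPM or more over the 10 libraries. The genes most like Rrm2 were Mcm5, a subunit of the replicative helicase, Cenpn, a centromere protein, and Ercc6l, a mitotic DNA translocase, with Pearson's r of 0.999 for each. For Rrm2b they were N4bp2l1 (r = 0.995), Smpdl3a (0.994) and Tcp11l2 (0.992). For Samhd1 they were Zc3h4 (0.984), Qrsl1 (0.983) and Cep89 (0.976). Among the 8 members other than Rrm2b, r over the 10 libraries ran from 0.852 to 0.997, and between Rrm2b and each of them from -0.975 to -0.916. The libraries fall into stages, so that any genes with a stage change share such values, and they are given as a description only.

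The pathways around the 9 genes were less uniform, except for the S phase list. The counts of this list and of those below stand against 33.9% of all tested genes that fell and 33.5% that rose in WT. In the S phase list 25 of 25 genes fell in WT, at a median log2 fold change of -2.81. They ran from Cdc6, a loader of the helicase (-5.78), to Rfc2, of the clamp loader (-1.05). Of these 25, 11 were higher in p27KO at 2 + 1 DIV, against 1.91% of all tested genes. They were Cdc6 (1.98), Mcm6 (1.49), Mcm5 (1.39), Uhrf1 (1.34), Mcm3 (1.28), Cdt1 (1.09), Pola1 (0.97), Cdc45 (0.94), Lig1 (0.87), Mcm2 (0.80) and Mcm4 (0.56). Mcm5 and Lig1 also passed in the difference between stage changes, at 1.18 and 0.75, beside the 1.33 of Rrm2.

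The folate cycle hands TYMS its one-carbon unit. In WT, 8 of 13 genes of this list fell, 3 rose and 2 did not pass, with a median of -0.64. The mitochondrial enzyme Mthfd1l was the lowest (-3.95) and Mthfs the highest (0.94) of those that passed.

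Other enzymes of salvage, sanitation and transport numbered 27, of which 23 were tested, and 16 fell, 6 rose and 1 did not pass in WT. The mitochondrial kinases moved against their cytosolic counterparts. Tk2, the mitochondrial thymidine kinase, rose by 0.48 (10.8, 12.8 and 11.9 CPM in WT neurospheres, 17.0, 16.7 and 16.0 CPM at 2 + 1 DIV), whereas Tk1 fell by 3.32. Dguok, the mitochondrial deoxyguanosine kinase, rose by 0.95, whereas Dck fell by 1.40. Dctd, which supplies dUMP from dCMP, fell by 2.55, and among the genes that passed, Upp1, a uridine phosphorylase, was the lowest (-3.45) and Slc25a33, a mitochondrial pyrimidine nucleotide carrier, the highest (1.42). Between genotypes at 2 + 1 DIV, 0 of the 23 passed in edgeR and 0 in DESeq2, and the median difference was -0.05. In edgeR 4 of the 23 had an unadjusted p under 0.05, against 1901 of the 12859 genes tested.

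Synthesis of the ribonucleotides that ribonucleotide reductase uses fell more mildly. Of 17 tested purine genes, 15 fell and 1 rose in WT, with a median of -0.86, from Hprt, a salvage enzyme (-2.97), to Prpsap1 (0.39). Of 8 pyrimidine genes, 5 fell and 2 rose, with a median of -0.88, from Umps, which completes UMP (-2.02), to Uckl1 (1.08). Between genotypes at 2 + 1 DIV, 0 genes of either list passed in edgeR, while 2 purine genes and 1 pyrimidine gene passed in DESeq2. In edgeR 3 of each list had an unadjusted p under 0.05, against 1901 of the 12859 genes tested.

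Rrm2b is a known target of p53, and the other 12 tested targets were described beside it. In WT 8 fell, 1 rose and 3 did not pass, with a median of -0.76 beside the 0.94 of Rrm2b. Cdkn1a, the p21 inhibitor, fell by 2.30 and was the lowest. It was at 305, 284 and 181 CPM in WT neurospheres and at 19.9, 75.1 and 61.3 CPM in WT cells at 2 + 1 DIV, a wide spread. Mdm2 fell by 0.43, and Fas, at 0.73, was the 1 that rose. At 2 + 1 DIV the p27KO libraries were at a median of 0.78 above WT for the 12. Of these, 0 passed in edgeR after adjustment, and 5 passed in DESeq2. All 12 had an unadjusted p under 0.05 in edgeR, against 1901 of the 12859 genes tested. In neurospheres the p27KO libraries were already higher, at a median difference of 0.42 and a lowest of 0.11. There, and in the difference between stage changes, 0 of the 12 passed in edgeR. WT library 1 at 2 + 1 DIV was low for Mdm2 (53.6, against 74.6 and 68.6 CPM) and Fas (8.14, against 12.8 and 14.1 CPM), as for Cdkn1a. RRM2 protein is removed through cyclin F and through the anaphase-promoting complex with FZR1, and Ccnf and Fzr1 fell in WT by 3.41 and 0.80. Ccnf was higher in p27KO at 2 + 1 DIV by 1.35, and Cdc20, another activator of that complex, which fell by 3.50 in WT, by 1.65. Cdkn1b rose by 0.94 in WT and was lower in p27KO at 2 + 1 DIV by 0.56 on the log2 scale (-0.56 ± 0.09).

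**Figure D5:**
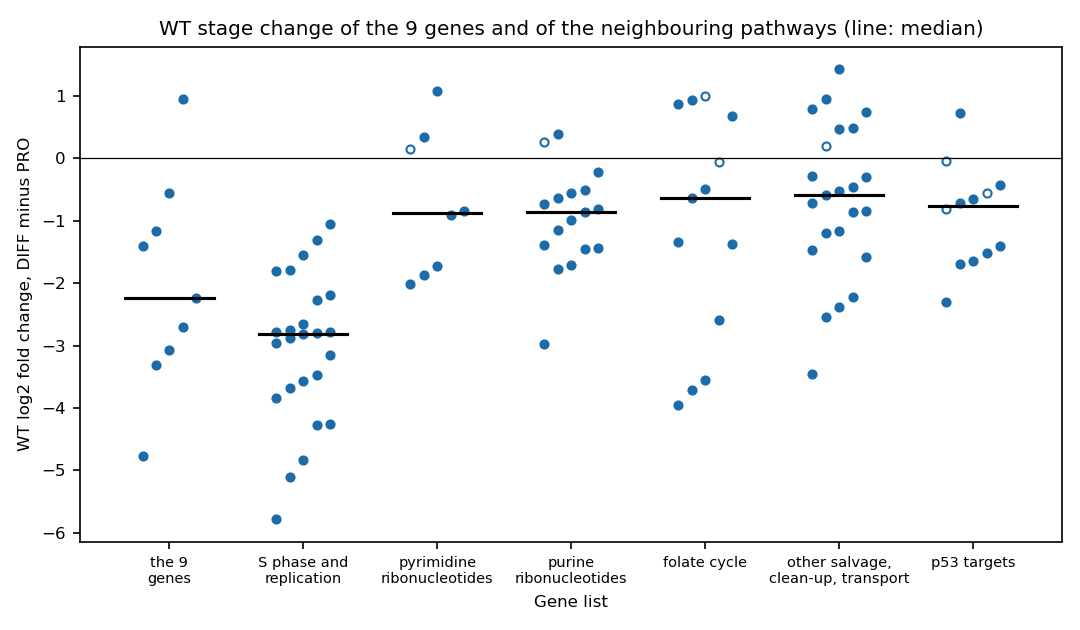
WT log2 fold change from neurospheres to 2 + 1 DIV (vertical axis) for the 9 genes and for 6 lists of neighbouring pathways, with members left out of the lists. Each point is a gene, open where the adjusted p was 0.05 or more, and the line is the median, -2.23 for the 9 genes and -2.81 for the S phase list.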

How the data were processed

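Per the paper's methods, the authors used STAR for alignment (Ensembl mouse transcripts) and RSEM for counting. They deposited these estimated counts as whole numbers, 1 per gene and library, without normalization (GRCm38/mm10 per the labels). Of 48795 identifiers, 48349 were matched to a symbol and length in GENCODE's GRCm38 annotation. The 9 members and all gene lists were chosen with earlier results of these data known, and no list is independent support.

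The study's filter was applied: a gene was dropped if 4 or more of the 10 libraries had it under 1 CPM, which left 12859. TMM factors were used, and the 4 groups were fitted in edgeR 4.0.16 (robust quasi-likelihood F-test, two-sided, Benjamini-Hochberg adjustment over all tested genes, threshold 0.05) in R 4.3.3. The study used DESeq2, which was an alternative here (1.42.0). The fit was tested on simulated counts. CPM uses the library total. TPM divides counts by merged exon length. Percentages left are ratios of group means of CPM. Depth was 19190068 to 25291674 counts per library. Some members still had few counts, as Tk1 with 94 to 125 and Dut with 125 to 174 in WT cells at 2 + 1 DIV. The parts of counting and of the spread between libraries in the precision were not tested. No replicates were copies of each other. Shared stretches between transcripts were found with BLAST 2.17.0.

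Genes named are the 9 members, from each list the lowest and highest passing WT stage change and any member passing in the interaction or between genotypes at 2 + 1 DIV, the fixed genes Tk2, Dguok, Dctd, Cdkn1a, Mdm2, Ccnf, Mki67, Pcna and Cdkn1b, and the 3 genes most like Rrm2, Rrm2b and Samhd1. Fzr1 was named after its value was seen. A gene that this rule names is not reported here. Same-numbered WT libraries of both stages deviated together (correlations of 0.248, 0.301 and 0.395 across genes). For same-numbered p27KO libraries the correlation was -0.138. With 2 libraries per group the deviations mirror each other, so that this is a single value and cannot show whether these libraries are paired. The main fit held no term for the replicate number, so that its SE and p-values leave such a pairing out. Only the replicate block, an alternative, treated the numbers as pairing libraries. The alternatives were DESeq2's size factors, DESeq2, 2 other filters, only the groups compared, the replicate block and each library left out.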

Additional observations from a re-analysis of the deposited data

Results flagged for a closer look

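The stage change of Rrm2, the S phase small subunit of ribonucleotide reductase, differed between genotypes by a direct test of the difference. It was 1.33 higher on the log2 scale in the libraries labelled p27KO (-3.43) than in WT (-4.77), and both p27KO libraries at 2 + 1 DIV (24.9 and 25.2 CPM) were above all 3 WT libraries (6.47 to 9.01 CPM). Mki67 moved with it, with a difference of 1.65 ± 0.27. Groups of 2 or 3 libraries are too small for a search for outlying libraries.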

How the results depend on the processing

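With 2 or 3 libraries per group, values without a p27KO library rest on a lone sample that is assumed to vary like the other groups. All 9 members passed in the WT stage change under each alternative, and 8 to 9 in that of p27KO. In the difference between stage changes, 2 members passed with DESeq2 (Rrm1 at 0.56 beside Rrm2), and 0 to 1 with a library left out. Between genotypes at 2 + 1 DIV, 1 member (Rrm2) passed in a fit of the compared groups alone, and 1 to 3 with a library left out. In neurospheres it was 0 throughout. Some values short of the threshold changed sign when a library was left out. Between genotypes in neurospheres, Rrm1 ran from -0.052 to 0.14, Dut from -0.14 to 0.43 and Dck from -0.11 to 0.25, each lowest without p27KO library 1. Rrm2b ran from -0.27 to 0.076 (highest without p27KO library 2) and Samhd1 from -0.11 to 0.075 (0.0039 without WT library 2, 0.075 without p27KO library 1). In the difference between stage changes, Dtymk ran from -0.058 to 0.18 (negative without WT neurosphere library 3, without WT DIFF library 2, at -0.0097, and without p27KO neurosphere library 2, at -0.037) and Rrm2b from -0.26 to 0.081. The cause was not tested. With the replicate block, 9 members passed in the WT stage change, 8 in that of p27KO, 1 in the difference, 4 between genotypes at 2 + 1 DIV and 0 in neurospheres. It changed no call of a member but those of Dut and Dtymk at 2 + 1 DIV, where it joins WT and p27KO libraries that no label pairs. With the p27KO numbers crossed, a pairing added after their correlation had been seen, 8 passed in the p27KO stage change and 1 in the difference. Over all genes, the difference between stage changes passed for 50, for 157 with DESeq2, 79 without a filter, 29 with the block and 0 to 89 with a library left out. Between genotypes at 2 + 1 DIV 262 passed, 631 with DESeq2 and 39 in a fit of the compared groups alone. In neurospheres it was 2, and 40 with DESeq2.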
